A study of Arabidopsis thaliana with 9 samples.

Results

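AT4G33560 and AT4G10270 encode small proteins annotated as wound-responsive family members, and both belong to the core set of genes that Arabidopsis raises when oxygen is short. The 2 genes were described across 9 ATH1 arrays, on which each was read by 1 probe set, and both passed the filter on low signal. They were selected on their higher signal at 50 kPa in these same arrays, so their values in comparisons with 50 kPa are given as a description, without a p-value. They are 2 of the 8633 genes that were named by at least 1 of the 15828 tested probe sets.

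The arrays held the dissected roots of Arabidopsis thaliana seedlings of the ecotype Wassilewskija, wild type as far as the labels say, which were grown for 5 d in the light on solid medium and then kept for 24 h in a low pressure growth chamber. One group was held at 50 kPa, where the oxygen partial pressure falls together with total pressure. A second, named 50 kPa/NormOx, was held at 50 kPa while added oxygen brought its own pressure to 21 kPa, and the third at the ambient pressure of the site, 97 kPa. All 3 groups shared the same medium, which contained benomyl, a fungicide, and the same partial pressure of carbon dioxide. Each group had 3 arrays, each from the pooled roots of 1 tube and each tube from another chamber, so p-values measure the spread between tubes. At 50 kPa without added oxygen, pressure and oxygen were lowered together, and the 2 low pressure groups differed in oxygen supply. The 50 kPa/NormOx arrays did not group tightly. Over the tested probe sets, 50 kPa/NormOx replicate 2 correlated at 0.954 to 0.960 with the 50 kPa arrays and at 0.944 and 0.946 with the other arrays of its own group. Those other arrays were not close either, at 0.948 with each other and 0.938 to 0.954 with the 50 kPa arrays.

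Plants sense oxygen through the N-degron pathway. Plant cysteine oxidases use oxygen to oxidise the amino-terminal cysteine of group VII ethylene response factors, which are then degraded. When oxygen is short these transcription factors persist and raise a small set of genes, which in roots includes those of fermentation, sugar use and oxygen sensing, together with many short proteins with no assigned biochemical function. AT4G33560 and AT4G10270 are among the latter. The name of their family comes from similarity to transcripts that accumulate after wounding, and the molecular activity of its members is not established.

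AT4G33560 was bright only in the roots kept at 50 kPa without added oxygen. Its signal was 1745, 1726 and 2185 on the 50 kPa arrays, 378, 184.6 and 121.8 on the 50 kPa/NormOx arrays and 170.3, 245.7 and 170.8 on the 97 kPa arrays. The 50 kPa arrays lay close together and far above all others, whereas the arrays of the other 2 groups overlapped. Mean signals were 1885 ± 260.0 (SD, n = 3) at 50 kPa, 228 ± 134 at 50 kPa/NormOx and 196 ± 43.4 at 97 kPa. On the log2 scale the gene was 3.28 ± 0.31 (SE of the fit) higher at 50 kPa than at 97 kPa, a 9.73-fold difference, and 3.20 ± 0.31 higher at 50 kPa than at 50 kPa/NormOx, or 9.19-fold. It ranked 2 among the 15828 tested probe sets by the log2 difference in each of these comparisons, which share the 50 kPa arrays. In such pooled tissue, a larger share of cells that hold a transcript and more transcript per cell cannot be told apart.

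AT4G10270 had the same order of group means with a smaller difference between them. Its signal was 1901, 1230 and 2711 on the 50 kPa arrays, 1047, 511.8 and 573.7 on the 50 kPa/NormOx arrays and 596.1, 451.2 and 465.8 on the 97 kPa arrays. The lowest 50 kPa array (1230) lay only a little above the highest 50 kPa/NormOx array (1047), and the arrays of 50 kPa/NormOx and 97 kPa overlapped. Mean signals were 1947 ± 742 (SD, n = 3) at 50 kPa, 711 ± 293 at 50 kPa/NormOx and 504 ± 79.7 at 97 kPa. The gene was 1.89 ± 0.28 higher on the log2 scale (3.70-fold) at 50 kPa than at 97 kPa, where it ranked 16 of 15828, and 1.46 ± 0.28 higher (2.74-fold) at 50 kPa than at 50 kPa/NormOx, where it ranked 35.

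For both genes all 3 arrays at 50 kPa lay above all 3 arrays of either other group. Of all tested probe sets, 6.19% did so against 97 kPa and 4.79% against 50 kPa/NormOx. Nothing is read from this, since the genes were chosen by the same values.

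**Figure D1:**
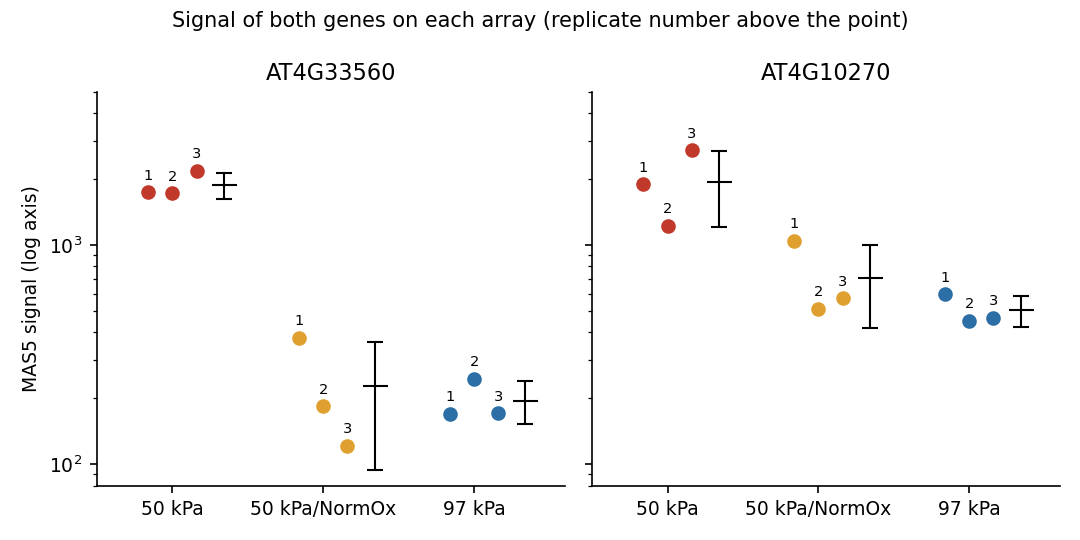
MAS5 signal (log axis) of AT4G33560 and AT4G10270 on each of the 9 arrays, with the group mean and SD as a bar beside the points and the replicate number above each point. The 50 kPa arrays of AT4G33560 (1726 to 2185) stand apart from the rest (121.8 to 378), and those of AT4G10270 (1230 to 2711) lie nearer to 50 kPa/NormOx replicate 1 (1047).

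The contrast of 50 kPa/NormOx with 97 kPa was tested, since its difference in means does not hold the 50 kPa arrays. The choice of the genes still set the 50 kPa arrays against the others, which may favour low signals in both other groups. The test is therefore not fully independent of the choice. The estimate of the spread was shared by all 9 arrays, those at 50 kPa included. The contrast asks whether low pressure with normal oxygen left a difference in either gene. The log2 difference of AT4G33560 was 0.08 ± 0.31, with a 95% interval of -0.57 to 0.74 (limma, adjusted p = 0.946). That of AT4G10270 was 0.43 ± 0.28, or 1.35-fold, with an interval of -0.16 to 1.02 (limma, adjusted p = 0.560). Fitted on the 6 arrays of these groups alone, the differences were 0.08 ± 0.36 for AT4G33560 (adjusted p = 0.954) and 0.43 ± 0.24 for AT4G10270 (adjusted p = 0.502). Neither gene passed the threshold of an adjusted p of 0.05, which 0.392% of the tested probe sets passed in either direction and 0.183% as higher. The upper bounds leave room for a log2 difference of 0.74 in AT4G33560 and of 1.02 in AT4G10270. The SE behind them also draws on the spread of other probe sets and of the 50 kPa arrays. AT4G33560 varied more at 50 kPa/NormOx (log2 SD 0.83) than at 50 kPa (0.19), so its interval may be too narrow. The direction for AT4G33560 turned on single arrays. Without 50 kPa/NormOx replicate 1 its log2 difference was -0.36 (adjusted p = 0.597), and without replicate 3 of that group it was 0.46 (adjusted p = 0.585), while AT4G10270 was at 0.11 (adjusted p = 0.912) without replicate 1. Without 50 kPa/NormOx replicate 2, the array of its group nearest to the 50 kPa arrays, the differences were 0.16 for AT4G33560 and 0.63 for AT4G10270. Without the same array the pair was 3.13 (AT4G33560) and 1.26 (AT4G10270) higher at 50 kPa than at 50 kPa/NormOx.

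The 2 genes differed in how far they moved. Levels of different probe sets cannot be set against each other, but their log2 ratio within an array can be followed across arrays. AT4G33560 minus AT4G10270 was -0.12, 0.49 and -0.31 on the 50 kPa arrays, -1.47, -1.47 and -2.24 on the 50 kPa/NormOx arrays and -1.81, -0.88 and -1.45 on the 97 kPa arrays. All 50 kPa arrays lay above all others, and the other 2 groups overlapped. The mean log2 ratio was 1.40 higher at 50 kPa than at 97 kPa and 1.74 higher at 50 kPa than at 50 kPa/NormOx, and was 0.35 lower at 50 kPa/NormOx than at 97 kPa. These values describe an unequal change of the 2 signals. With 32 added to every signal before the log2 transformation, the difference between 50 kPa and 97 kPa was 1.26.

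**Figure D2:**
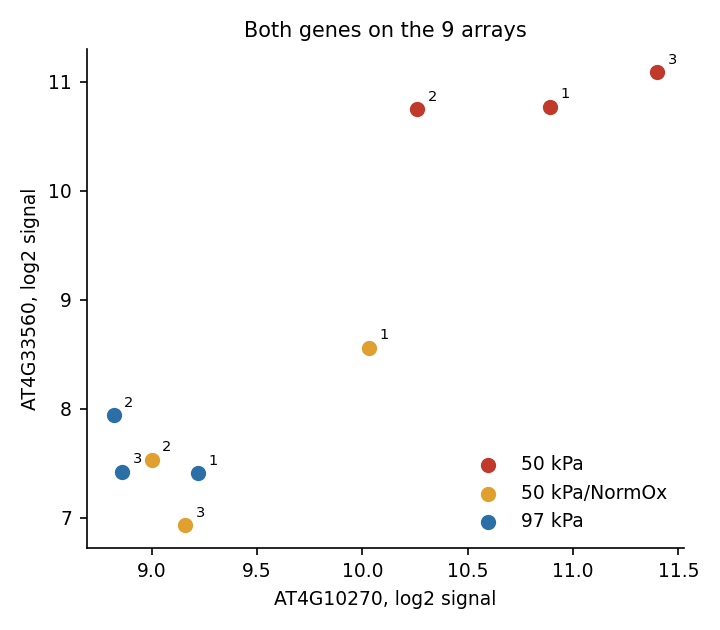
Log2 signal of AT4G33560 (vertical axis) against log2 signal of AT4G10270 (horizontal axis), 1 point per array, coloured by group and numbered by replicate. The 50 kPa arrays form a separate cluster at the upper right, and 50 kPa/NormOx replicate 1 lies between it and the other 5 arrays.

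Within the 2 low pressure groups the highest array was the same for both genes. Replicate 3 at 50 kPa was the highest of its group, by 0.22 above the group mean on the log2 scale for AT4G33560 and 0.55 for AT4G10270, and replicate 2 was the lowest, at -0.12 and -0.59. Replicate 1 at 50 kPa/NormOx was the highest of its group, at 0.89 for AT4G33560 and 0.63 for AT4G10270, while the lowest was replicate 3 for AT4G33560 (-0.74) and replicate 2 for AT4G10270 (-0.40). At 97 kPa the order differed, with AT4G33560 highest in replicate 2 and AT4G10270 in replicate 1. Of the other 21 tested genes of the core hypoxia list, 12 were highest of their group in 50 kPa replicate 3, as were 33.8% of all tested probe sets, and 13 were lowest in 50 kPa replicate 2, as were 32.4% of all. In 50 kPa/NormOx replicate 1, 10 of the 21 were highest, as were 35.5% of all. Replicate spread was wide for both genes. The SD within groups on the log2 scale was 0.52 for AT4G33560 and 0.48 for AT4G10270, against a median of 0.26 over all tested probe sets, and exceeded that of 89.7% of them for AT4G33560 and 86.8% for AT4G10270. The spread of AT4G33560 was narrow at 50 kPa (SD 0.19) and wide at 50 kPa/NormOx (0.83), with 0.30 at 97 kPa. That of AT4G10270 was 0.57 at 50 kPa, 0.55 at 50 kPa/NormOx and 0.22 at 97 kPa.

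Several properties of the arrays moved with the groups. Markers of green tissue were measured to learn whether the dissected roots carried shoot RNA. Of 10 such markers 3 had a named probe set, namely LHCB4.1, a light-harvesting protein, RCA, the activase of Rubisco, and STOMAGEN, a peptide that promotes stomata. Their summed signal was 7982 to 13180 at 50 kPa, 4570 to 11732 at 50 kPa/NormOx and 5690 to 7968 at 97 kPa, so that the 50 kPa arrays lay just above the 97 kPa arrays. The sum mostly reflects the brighter LHCB4.1 and RCA. Singly, the log2 differences at 50 kPa against 97 kPa were 0.46 for LHCB4.1, 0.50 for RCA and 1.24 for STOMAGEN. At 50 kPa/NormOx against 97 kPa they were -0.26, 0.23 and 0.80, and at 50 kPa against 50 kPa/NormOx 0.72, 0.27 and 0.44. None of these differences passed the test (limma, adjusted p under 0.05). At an unadjusted p under 0.05, STOMAGEN passed in both contrasts with 97 kPa, and LHCB4.1 at 50 kPa against 50 kPa/NormOx. Of all tested probe sets, 9.38% passed so at 50 kPa against 97 kPa, 12.6% at 50 kPa/NormOx against 97 kPa and 9.04% at 50 kPa against 50 kPa/NormOx. None of the 3 was at 0, a value that MAS5 does not give. At 50 kPa the sum was highest in replicate 2, where both genes were lowest, and lowest in replicate 3, where both were highest. At 50 kPa/NormOx it was lowest in replicate 1, where both genes were highest. The root hair expansins EXPA7 and EXPA18, the 2 of 12 root markers with a named probe set, summed to 510.1 to 848 at 50 kPa, 503.1 to 1099 at 50 kPa/NormOx and 634.1 to 718.9 at 97 kPa, with overlap. The GAPDH control, whose 3′ signal over its 5′ signal reflects RNA integrity and labelling, gave a ratio that was 4.40 to 5.11 at 50 kPa, 4.51 to 5.57 at 50 kPa/NormOx and 5.39 to 6.39 at 97 kPa by the revised control probe sets, so that the 50 kPa arrays lay below the 97 kPa arrays. By the older GAPDH probe sets the ratio was 47.4, 32.3 and 69.3 on the 50 kPa arrays, 108, 66.1 and 55.9 on the 50 kPa/NormOx arrays and 58.4, 58.0 and 78.5 on the 97 kPa arrays, and the groups overlapped. At 50 kPa and at 50 kPa/NormOx these replicates stood in the same order as those of AT4G33560, and so did the mean signal of the 18 hybridization spikes, which was 13824, 12951 and 17104 at 50 kPa, 22186, 17551 and 15597 at 50 kPa/NormOx and 15156, 14260 and 15143 at 97 kPa. At 97 kPa neither control followed the order of the gene. Median signals over all probe sets were 196.1 to 201.5 at 50 kPa, 200.7 to 205.9 at 50 kPa/NormOx and 207.1 to 216.6 at 97 kPa. The part of shoot RNA, of RNA quality and of the spikes in the results was not tested.

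The remaining core hypoxia genes were described to place the pair in its pathway. Of 52 genes listed as core hypoxia genes, 27 had a named probe set and 23 of these passed the filter on low signal, 21 without the pair. Between 50 kPa and 97 kPa, 4 of these 21 genes rose, 0 fell and 17 did not pass the test (limma, adjusted p under 0.05), against 0.0948% of all tested probe sets called in either direction and 0.0821% called higher. The median log2 difference of the 21 genes was 0.66, against -0.04 over all tested probe sets, and 20 of the 21 were above 0, against 43.2% of all. In 12 of the 21 all 50 kPa arrays lay above all 97 kPa arrays, against 6.19% of all. At an unadjusted p under 0.05, 11 of the 21 passed, against 9.38% of all. With 50 kPa/NormOx in place of 97 kPa, 3 of the 21 rose at 50 kPa and 0 fell, against 0.0821% of all tested probe sets called in either direction and 0.0758% called higher, and the median was 0.81, against -0.02 over all. In this comparison 12 of the 21 passed an unadjusted p of 0.05, against 9.04% of all. At 50 kPa/NormOx against 97 kPa 0 of the 21 passed the test in limma, and the median was -0.03, against -0.02 over all. At an unadjusted p under 0.05, 2 of the 21 passed, 1 of them as lower, against 12.6% of all. The counts of calls rested on single arrays. Only 2 of the 21 genes passed at 50 kPa against 97 kPa without 50 kPa replicate 1, without 50 kPa replicate 3 or without 97 kPa replicate 2.

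Among the genes that rose, AT1G33055, which encodes a short protein of unknown function, had a signal of 476.8, 317.9 and 1219 at 50 kPa, 110.9, 85.06 and 57.58 at 50 kPa/NormOx and 105, 33.03 and 86.43 at 97 kPa. Replicate 3 at 50 kPa was far above the other arrays of its group, and all 50 kPa arrays were above all others. The gene was 3.09 ± 0.49 higher on the log2 scale at 50 kPa than at 97 kPa (limma, adjusted p = 0.0185) and 2.80 ± 0.49 higher at 50 kPa than at 50 kPa/NormOx (adjusted p = 0.0454). AT4G27450, annotated as an aluminium-induced protein, had a signal of 1525, 1276 and 2175 at 50 kPa, 562, 295.2 and 477 at 50 kPa/NormOx and 378.9, 510.5 and 440.1 at 97 kPa. It was 1.88 ± 0.24 higher at 50 kPa than at 97 kPa (adjusted p = 0.00206) and 1.91 ± 0.24 higher at 50 kPa than at 50 kPa/NormOx (adjusted p = 0.00229). Its difference from 97 kPa was thus close to the 1.89 of AT4G10270, with the replicates in the same order at 50 kPa.

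AT3G03270, the universal stress protein HRU1, averaged 2285 ± 283 at 50 kPa, 866 ± 85.1 at 50 kPa/NormOx and 985 ± 14.5 at 97 kPa (SD, n = 3), and was 1.21 ± 0.14 higher on the log2 scale at 50 kPa than at 97 kPa (adjusted p = 0.000696) and 1.40 ± 0.14 higher at 50 kPa than at 50 kPa/NormOx (adjusted p = 0.000154). AT5G66985, of unknown function, was 1.34 ± 0.23 higher at 50 kPa than at 97 kPa (adjusted p = 0.0316) and 1.21 ± 0.23 higher at 50 kPa than at 50 kPa/NormOx, which did not pass (adjusted p = 0.0855). Next by p at 50 kPa against 97 kPa, and not past the threshold, were AT5G44730, with a log2 difference of 1.07 (adjusted p = 0.0813), and AT5G58070, the lipocalin TIL, with 0.65 (adjusted p = 0.210). AT5G44730 was also 0.59 higher at 50 kPa/NormOx than at 97 kPa (limma, adjusted p = 0.269), and 0.49 higher at 50 kPa than at 50 kPa/NormOx. At the low end was PDC2, a pyruvate decarboxylase of fermentation, singled out after its values were seen, with a log2 difference of -0.03 between 50 kPa and 97 kPa. It was the only fermentation enzyme of the core list with a named probe set, so nothing is read from it about fermentation. By size of the log2 difference from 97 kPa, AT4G33560 was the first and AT4G10270 the third of the 23 tested core genes, a description only.

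**Figure D3:**
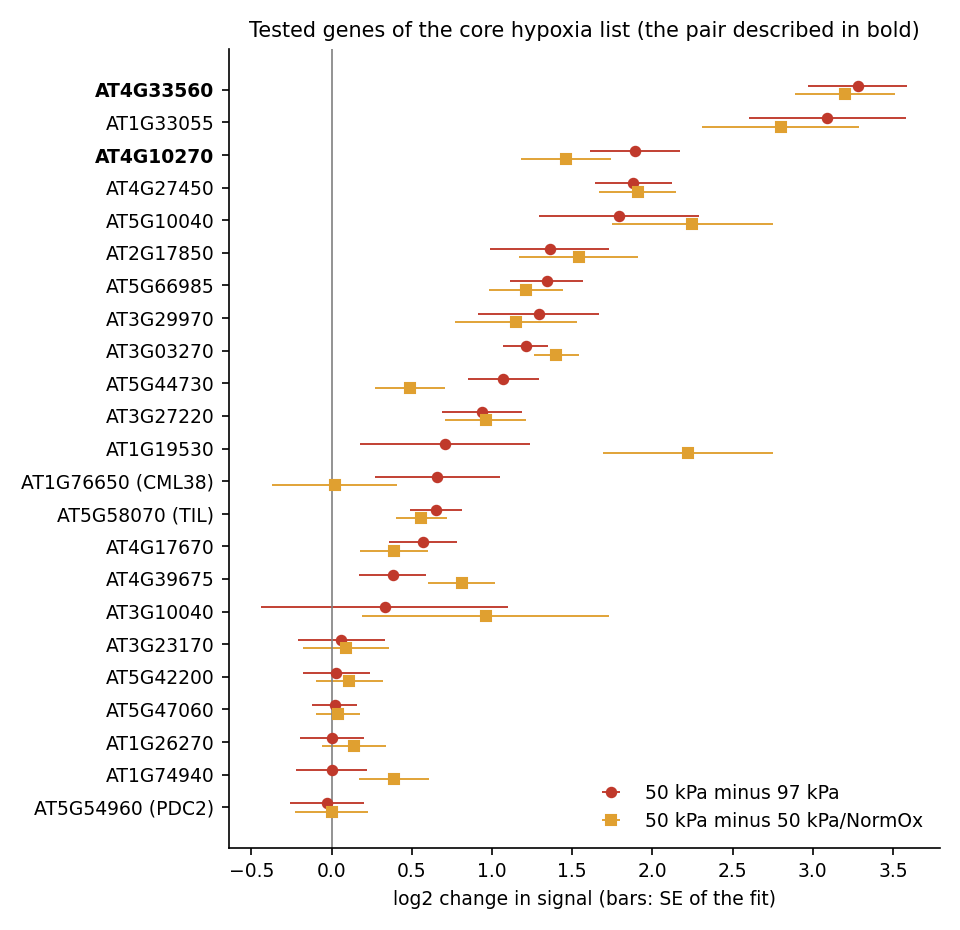
Log2 difference in signal (horizontal axis, bars are the SE of the fit) of the 23 tested genes of the core hypoxia list, at 50 kPa minus 97 kPa (circles) and at 50 kPa minus 50 kPa/NormOx (squares), with the pair in bold. The contrasts share the 50 kPa arrays, and the 21 genes other than the pair run from -0.03 to 3.09 against 97 kPa.

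The regulators were hardly measured by name. Of 23 genes of the N-degron pathway and the group VII ethylene response factors, 2 had a named probe set. NTAN1 (AT2G44420), an amidohydrolase of the pathway's asparagine branch, had a log2 difference of 0.12 at 50 kPa against 97 kPa, and HRA1 (AT3G10040), a trihelix protein that restrains a group VII factor, one of 0.33. Neither gene passed the test in any of the 3 comparisons, and 0 of the 2 did so at an unadjusted p under 0.05.

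The family name raised the question of whether other genes linked to wounding moved as well. Of 47 genes of wounding and jasmonate, the hormone of the wound response, 4 had a named and tested probe set, and 0 of the 4 passed the test in any comparison (limma, adjusted p under 0.05). At an unadjusted p under 0.05, 1 of them passed at 50 kPa against 97 kPa, as lower, 0 at 50 kPa/NormOx against 97 kPa and 1 at 50 kPa against 50 kPa/NormOx, as higher. Of all tested probe sets 9.38%, 12.6% and 9.04% passed in these comparisons. At 50 kPa against 97 kPa their log2 differences were 0.62 for PDF1.2b and 0.35 for PDF1.2, both plant defensins, 0.51 for WRKY53, a transcription factor of senescence and defence, and -0.73 for GRX480, a glutaredoxin. The median of the 4 was 0.43 at 50 kPa against 97 kPa, -0.24 at 50 kPa/NormOx against 97 kPa and 0.53 at 50 kPa against 50 kPa/NormOx, with -0.04, -0.02 and -0.02 over all tested probe sets. Whether the probe set of PDF1.2b also reads the transcript of PDF1.2 was not tested. With only 4 of the 47 genes measured by name, these values say little about the wound response.

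Neither of the other measured members of the wound-responsive family was called. Of 9 listed family genes 4 had a named probe set, the pair included. AT4G05070 had a signal of 1581, 1426 and 1682 at 50 kPa, 1429, 1659 and 1353 at 50 kPa/NormOx and 1443, 1557 and 1827 at 97 kPa. AT4G28240 had a signal of 1173, 1350 and 1547 at 50 kPa, 1270, 1619 and 1186 at 50 kPa/NormOx and 1330, 1458 and 1359 at 97 kPa. For both of them the arrays of all 3 groups overlapped. The log2 difference between 50 kPa and 97 kPa was -0.04 with a 95% interval of -0.34 to 0.26 for AT4G05070 (limma, adjusted p = 0.960) and -0.04 with an interval of -0.36 to 0.29 for AT4G28240 (limma, adjusted p = 0.968). These intervals lie below the differences of the pair, although a test of that contrast was not made because the pair was chosen on it.

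Genes next to the pair were examined to see whether a wider stretch of chromosome 4 changed. In the gene order of TAIR10.1, 3 of the 10 nearest genes of AT4G33560 had a named probe set and 2 were tested, and for AT4G10270 these counts were 4 and 2. At 50 kPa against 97 kPa the log2 differences were 0.14 for AT4G33550 and 0.18 for AT4G33540 beside AT4G33560, and -0.25 for AT4G10280 and 0.25 for AT4G10300 beside AT4G10270. None of these 4 genes was called in any of the 3 comparisons (limma, adjusted p under 0.05). At an unadjusted p under 0.05, 1 gene beside each of the pair (AT4G33550 and AT4G10280) passed at 50 kPa against 50 kPa/NormOx, with log2 differences of 0.46 and -0.41, as did 9.04% of all tested probe sets. AT4G10265, the gene directly before AT4G10270 and a member of the same family, had no named probe set, and whether the probe set of AT4G10270 also reads its transcript was not tested.

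Finally the genes with the most similar profiles were sought. Log2 signals were centred on each gene's own mean over the 9 arrays, and likeness was the root mean square (RMS) difference between 2 centred profiles. Closest to AT4G33560 among probe sets naming 1 gene were AT1G33055 (RMS difference 0.72), AT4G27450 (0.74), AT4G10270 (0.84), AT5G10040 (0.87) and AT3G03270 (1.01), against a median of 1.62 over all. All 5 of these genes are on the core hypoxia list, and 1 of them, AT4G10270, is the other gene of the pair. AT1G33055 was as low as 33.03 (97 kPa replicate 2) and AT5G10040 as low as 25.04 (50 kPa/NormOx replicate 2). Both values are below the 66.5 that the filter set for a mean signal. Closest to AT4G10270 were AT4G27450 (0.35), AT5G66985 (0.44), AT3G03270 (0.52), AT2G43370 (0.53) and AT1G12100 (0.53), against a median of 0.95, and 3 of the 5 are on that list. AT4G33560 ranked only 908 among named probe sets by its distance from AT4G10270, since this measure counts the size of a change as well as its shape. AT2G43370 had a dim signal of 110.6, 151.4 and 167.5 at 50 kPa, 84.86, 72.75 and 82.91 at 50 kPa/NormOx and 76.1, 77.15 and 47.32 at 97 kPa, close to the filter's floor of 66.5. AT1G12100, a lipid transfer protein, was dim as well, at 139.4 to 195.4 at 50 kPa. Of the 10 probe sets nearest to each gene, 6 had no single gene name for AT4G33560 and 6 for AT4G10270, so the named neighbours are an incomplete list. The 9 arrays shared their scaling, and likeness over 3 groups is dominated by the step between 50 kPa and the rest.

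**Figure D4:**
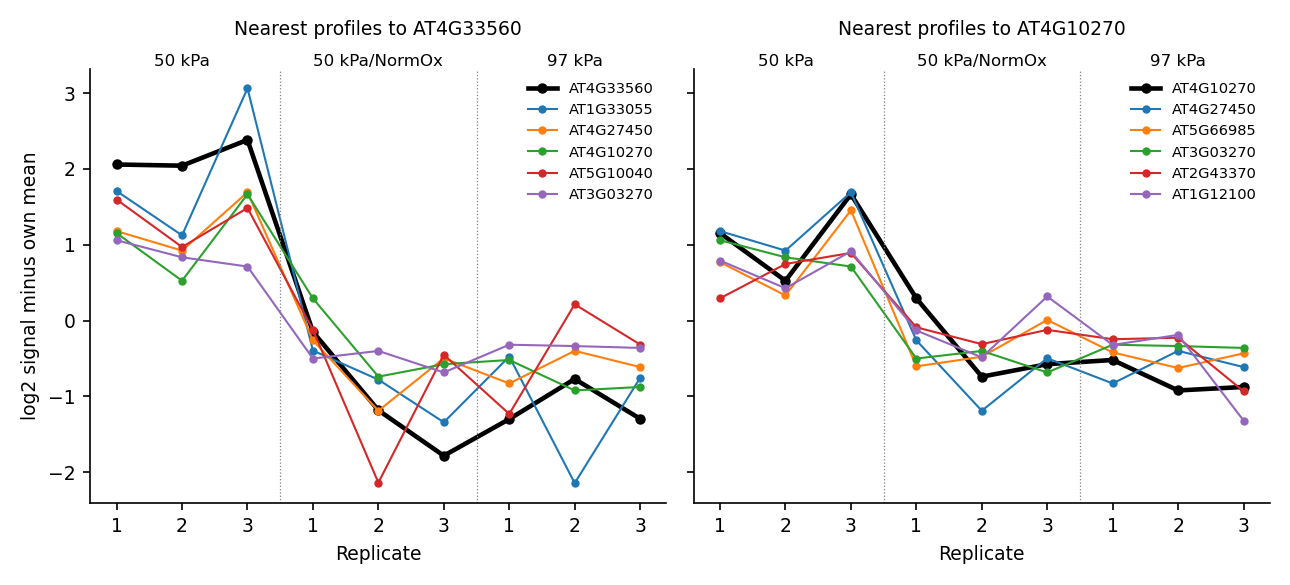
Log2 signal minus the gene's own mean (vertical axis) on the 9 arrays by group and replicate, for AT4G33560 (left) and AT4G10270 (right) in black with the 5 named genes of smallest RMS difference. In both panels the 50 kPa arrays of every gene drawn lie above its own mean. The highest array is 50 kPa replicate 3 for all genes drawn except AT5G10040 and AT3G03270, which are highest in 50 kPa replicate 1.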

How the data were processed

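Expression was measured on 9 ATH1 arrays of 5 d roots, grouped by sample title. The deposited MAS5 signal intensities are on a linear scale and come from the authors' run of Affymetrix Expression Console (versions not given in the sources used here). They carry no detection calls, and their scaling to a common level removes any change in total mRNA. The number of arrays limits the precision. Of 22810 probe sets, 64 controls and 135 taken to be of organelle genes (in part an assumption from runs of probe numbers) were left out. The 30% with the lowest mean log2 signal (6783 of 22611) were then left out, a floor at a signal of 66.5, and 15828 were tested. No column was left unused (0).

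Gene names came from the platform annotation and the TAIR10.1 gene table, where 13436 of 13513 probe sets naming 1 gene matched. A further 503 named several genes, and 8730 were not listed and stay unnamed here. No genome coordinates or sequences are given. Log2 signals were fitted in limma 3.58.1 (R 4.3.3) with an intensity trend in the prior variance, two-sided, with Benjamini-Hochberg adjustment over all tested probe sets, and called at an adjusted p under 0.05. The fit was tested on simulated data.

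The brightest probe set stood for its gene. The members and lists were chosen with earlier results of these data known. Named genes were the pair, the 5 named genes nearest to each by profile, called core hypoxia genes, up to 6 genes per list by smallest p at 50 kPa against 97 kPa, and measured genes of the wound-responsive family. Alternatives covered the filter, quantile normalization, an offset of 32, the variance trend, the arrays in the fit, a replicate block and leaving out each array. Replicate numbers did not pair arrays across groups.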

Additional observations from a re-analysis of the deposited data

Results flagged for a closer look

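The hybridization spikes, bacterial and phage control transcripts that carry no plant signal, are outside the comparisons of genes. The mean signal of their 18 probe sets was 18445 ± 3384 (SD, n = 3) at 50 kPa/NormOx and 14853 ± 514 at 97 kPa, and all 50 kPa/NormOx arrays (15597 to 22186) lay above all 97 kPa arrays (14260 to 15156). At 50 kPa the mean was 14626 ± 2190. The highest spike signal was that of 50 kPa/NormOx replicate 1, which was also the highest array of its group for AT4G33560 (378) and AT4G10270 (1047). The part of the spikes in those values was not tested.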

How the results depend on the processing

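Directions and counts were compared under each alternative. Of the values recomputed with 1 array left out, 193 were counted as the same, 20 moved and 3 changed sign. Under the other alternatives 107 were counted as the same and 14 moved. For the pair at 50 kPa/NormOx against 97 kPa, the same means only that sign and call status were kept. AT4G33560 going from 0.08 to 0.46 is an example. A log2 difference cannot change when an array of the group not compared is left out, or with the replicate block. Such values are also counted as the same, so the tally overstates stability. With 1 array left out, AT4G33560 was 3.17 to 3.46 higher (log2) at 50 kPa than at 97 kPa and 2.83 to 3.64 higher at 50 kPa than at 50 kPa/NormOx, and AT4G10270 was 1.61 to 2.18 and 1.18 to 1.77 higher in the same comparisons. At 50 kPa/NormOx against 97 kPa the log2 difference of AT4G33560 ran from -0.36 to 0.46 and changed sign to -0.36 without 50 kPa/NormOx replicate 1, to -0.01 without 97 kPa replicate 1 and to -0.00 without 97 kPa replicate 3, and that of AT4G10270 ran from 0.11 to 0.63. The shift of the ratio of the 2 genes ran from 1.16 to 1.65 for 50 kPa against 97 kPa, from 1.49 to 1.91 for 50 kPa against 50 kPa/NormOx and from -0.56 to -0.09 for 50 kPa/NormOx against 97 kPa.

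Counts of calls were less stable, and the cause was not tested. At 50 kPa against 97 kPa, 15 probe sets were called, and 24 with the offset, 62 with only the 6 arrays compared, 6 with no variance trend (1403 passed an unadjusted p of 0.05) and 8 to 53 with 1 array left out. At 50 kPa against 50 kPa/NormOx, 13 were called, and 4 with no trend and 8 to 94 with 1 array left out. At 50 kPa/NormOx against 97 kPa, 62 were called, and 103 with only 6 arrays, 0 with no trend (1798 passed an unadjusted p of 0.05) and 2 to 104 with 1 array left out. Of the 21 core hypoxia genes, 4 were called against 97 kPa, and 2 with no filter, 6 with only 6 arrays, 1 with no trend and 2 to 5 with 1 array left out. Against 50 kPa/NormOx, 3 were called, and 2 with no filter, 1 with no trend and 2 to 4 with 1 array left out, and their median of 0.81 was 0.55 with the offset, 0.96 with no filter and 0.52 to 0.93 with 1 array left out. The median of the wound and jasmonate list at 50 kPa against 97 kPa ran from 0.10 to 0.68. With the offset, 3 of the 5 genes nearest to AT4G10270 were the same genes.

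A block for the replicate number cannot change a log2 difference here, since every group holds the same replicate numbers, and bears only on its SE. The 3.28 of AT4G33560 and the 1.89 of AT4G10270 at 50 kPa against 97 kPa are thus unchanged by design. With the block, called probe sets numbered 30 at 50 kPa against 97 kPa and 28 at 50 kPa against 50 kPa/NormOx. The numbers did not pair the arrays. Correlations of same-numbered deviations ran from -0.0508 to 0.113, and 3 of 9 arrays were closest to their own number. Without detection calls, presence of a transcript could not be judged on any single array.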
